A study of Homo sapiens with 16 samples.

Results

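A set of 23 genes for the core and linker histones was described, chosen by name from the genes of the deposited RNA sequencing table whose mapped symbol starts with H1-, H2AC, H2BC, H3C or H4C followed by a number, with pseudogenes left out. They were 23 of the 18332 genes in the table: 4 for linker histone H1, 5 for H2A, 8 for H2B, 3 for H3 and 3 for H4. Another 4 symbols matched the pattern and were excluded, namely 3 pseudogenes and H1-10-AS1, an RNA antisense to H1-10. Counted in the same way, the annotation used here holds 70 protein-coding genes of the pattern, and the identifiers of 47 of them were not among those of the table. HIST2H2AA3 is an older name kept by the annotation (current RefSeq symbol H2AC18).

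The data came from a pair of established breast cancer cell lines, MDA-MB-468 and MDA-MB-231, labelled as negative for the estrogen receptor. Cells of each line spent 48 hours in medium with glucose at 5 mM, called low and used as control, or at 25 mM, called high and meant to model hyperglycemia, with 4 replicates in each of the 4 groups and 16 samples in all. According to the study's methods the glucose media held no serum and the cells were conditioned in low glucose first, so all groups share these conditions. For routine growth the methods name DMEM for MDA-MB-231 and RPMI for MDA-MB-468, so that medium cannot be told apart from line. Each line is a single line from a single donor, and nothing in the labels says that replicates came from independent cultures, so the p-values measure the spread between these samples.

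Core histones H2A, H2B, H3 and H4 form the octamer around which DNA is wrapped, and linker histones H1 bind the DNA that enters and leaves it. Most of their genes are replication dependent: they are transcribed in S phase, lack introns, and give mRNAs that end in a conserved stem-loop, bound by the protein SLBP, in place of a poly(A) tail. Libraries made by capture of poly(A) tails recover such mRNAs poorly; the labels for these samples say only that the maker's standard protocols were followed, while the study's methods name a stranded mRNA kit beside tumor RNA. H1-10 is a replication-independent linker histone whose mRNA is polyadenylated.

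The members hold the marks of these 2 kinds of gene. On GRCh37 (hg19), 14 members lie on chromosome 6, within chr6:26017260-27823487, 6 on chromosome 1, and 1 each on chromosomes 3 (H1-10), 12 (H4C16) and 21 (H2BC12L). The first 150 bases after each stop codon were searched, on the strand that reads as the mRNA, for the histone stem-loop consensus of 16 bases. It was present in 21 of 23 members and absent in H1-10 and H2BC12L. Of 20175 protein-coding genes, 70 (0.347%) held it, and 69 of these carried a histone symbol. Distances from the stop codon to the stem-loop ran from 23 to 68 bases in the members. The stem-loops of 7 members that the results turn on are printed here, 5′ to 3′, with the stem-loop in capitals and 5 flanking bases on each side; together they include 4 distinct forms, which are all the forms found in the members.
H2BC12: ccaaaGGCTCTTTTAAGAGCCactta
H2BC5: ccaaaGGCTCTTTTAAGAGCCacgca
H1-2: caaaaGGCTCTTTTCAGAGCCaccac
H2AC6: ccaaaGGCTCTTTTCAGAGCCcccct
H2AC25: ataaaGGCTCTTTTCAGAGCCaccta
H2AC11: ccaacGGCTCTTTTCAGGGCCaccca
H4C8: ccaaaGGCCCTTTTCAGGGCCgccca
These runs lie on GRCh37 at chr6:27114140-27114165 (minus strand), chr6:26158810-26158835 (plus), chr6:26055967-26055992 (minus), chr6:26124892-26124917 (plus), chr1:228645065-228645090 (minus), chr6:27101289-27101314 (plus) and chr6:26285354-26285379 (minus). The form of H1-2, H2AC6 and H2AC25 was found in 12 members, that of H2BC12 and H2BC5 in 5, that of H4C8 in all 3 H4 genes, and that of H2AC11 in H2AC11 alone. In 11 of the 21 stem-loop genes the annotated gene runs more than 100 bases past the stem-loop, by 280 to 37150 bases, as in H2AC6, H2BC5, H2BC21 and H4C8. H2BC12 is not among the 11, but its RefSeq gene is 8566 bases long, against 495 in the annotation used here. The polyadenylation signal AATAAA occurred in the same 150 bases in 4 members (H1-2, HIST2H2AA3, H2BC5 and H4C11), and in 13.9% of all protein-coding genes.

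In the RefSeq table of promoters (GRCh38.p14, 250 bases before to 50 after the start), 22 of the 23 members had an entry. Each window was searched on both strands. The TATA box TATAAA was in 16 of 22 members and 11.95% of 27305 promoters, and CCAAT was in 18 of 22 and 35.7%. The octamer ATTTGCAT, known from H2B promoters, was in 8 of 22 members, 5 of them among the 7 H2B genes, and in 1.80% of all promoters. AAACACA, known from H1 promoters, was in 5 of 22 and 5.76%, with matches in 3 of the 4 H1 genes. The promoters of 3 genes are shown, with these motifs in capitals: that of H2BC12, the most abundant stem-loop gene; that of H2AC11, whose level rose the most; and that of H2AC25, the member that fell.
H2BC12: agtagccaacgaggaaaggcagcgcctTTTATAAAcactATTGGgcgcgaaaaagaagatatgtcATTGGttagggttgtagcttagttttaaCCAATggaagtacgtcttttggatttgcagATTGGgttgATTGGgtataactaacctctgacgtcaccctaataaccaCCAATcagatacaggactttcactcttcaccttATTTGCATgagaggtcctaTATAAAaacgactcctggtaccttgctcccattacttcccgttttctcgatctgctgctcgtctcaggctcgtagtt
H2AC11: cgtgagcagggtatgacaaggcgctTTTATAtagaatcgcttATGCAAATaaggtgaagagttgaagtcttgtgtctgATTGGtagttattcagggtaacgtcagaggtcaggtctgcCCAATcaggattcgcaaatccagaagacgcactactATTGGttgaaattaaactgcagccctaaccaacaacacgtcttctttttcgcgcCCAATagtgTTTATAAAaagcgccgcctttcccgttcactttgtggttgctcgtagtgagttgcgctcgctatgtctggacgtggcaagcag
H2AC25: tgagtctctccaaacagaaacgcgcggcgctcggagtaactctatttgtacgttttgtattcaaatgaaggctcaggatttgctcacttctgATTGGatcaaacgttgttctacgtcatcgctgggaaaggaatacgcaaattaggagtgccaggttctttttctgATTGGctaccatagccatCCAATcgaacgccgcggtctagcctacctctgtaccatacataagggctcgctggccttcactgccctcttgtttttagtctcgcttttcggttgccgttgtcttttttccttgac
They lie on GRCh38.p14 at chr6:27146809-27147108 (minus strand), chr6:27132793-27133092 (plus) and chr1:228457824-228458123 (minus). H2BC12 and H2AC11 carry the TATA box, CCAAT and the octamer, and of these 4 motifs the H2AC25 window holds CCAAT alone. In 2 pairs, members start back to back, H2BC4 with H2AC6 at 219 bases between starts and H2BC11 with H2AC11 at 248 bases (GRCh37). The promoter windows of each pair overlap, so a motif in the overlap was counted for both genes. The octamer of H2AC11 is the one of H2BC11 read on the other strand.

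Libraries held 14094597 to 24425916 reads, so that 3 reads, taken as the counting floor, stood for 0.123 to 0.213 CPM, which is reads scaled to library size. The line markers followed the labels. Mean VIM (a mesenchymal filament protein) was 5548 and 5302 CPM in low- and high-glucose MDA-MB-231 against 1.37 and 1.62 in the other line, while CDH1, EPCAM, KRT5 and EGFR were higher in MDA-MB-468. ESR1, the estrogen receptor gene, had a mean of 0.0753 CPM in low-glucose MDA-MB-231 and 3.68 in low-glucose MDA-MB-468. Of the markers of other cell types, PTPRC stayed under 1 CPM and CDH5 near 0 in every library, whereas LYZ was at 3.91 to 6.75 in MDA-MB-231 and at 0 reads in MDA-MB-468.

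All 23 members together took up a small part of the libraries, and H1-10 and H2BC12 made up most of it. Their summed level was 181 ± 4.11 CPM in low-glucose and 202 ± 4.30 in high-glucose MDA-MB-231, and 145 ± 3.06 and 207 ± 6.14 in low- and high-glucose MDA-MB-468 (mean ± SD, n = 4 per group). H1-10 and H2BC12 held between 65.9% and 73.6% of the members' reads in every library. In bulk RNA a lower share of cells that express a gene and less of its RNA per cell cannot be told apart.

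**Figure D1:**
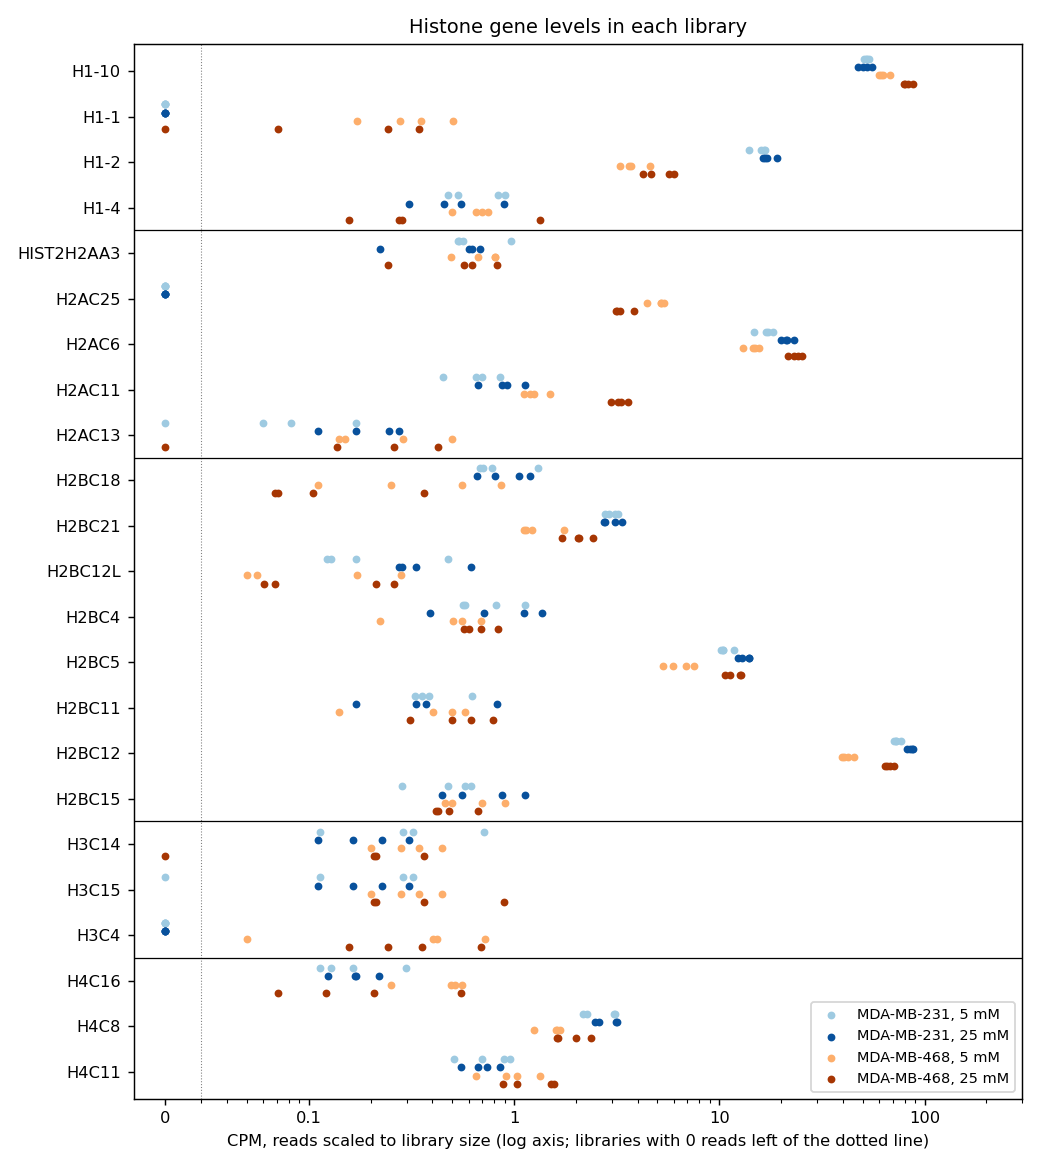
CPM of each of the 23 histone genes (rows, grouped as H1, H2A, H2B, H3 and H4 from the top) on a log axis. Each point is a library, colored by line and glucose concentration, and points left of the dotted line are libraries with 0 reads; H1-1, H2AC25 and H3C4 had 0 reads in all 8 MDA-MB-231 libraries.

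Per kilobase of the canonical transcript, H2BC12 ranked first in all 4 groups, with means of 148 ± 4.56, 173 ± 5.08, 84.7 ± 5.15 and 136 ± 6.22 RPKM (reads per kilobase at the same library size; SD, n = 4) in low- and high-glucose MDA-MB-231 and low- and high-glucose MDA-MB-468. H1-10 and H2AC6 held the next 2 places in every group, with H2BC5 at rank 4. In low-glucose MDA-MB-231, H1-10 (34.4 ± 0.842) and H2AC6 (32.4 ± 2.83) stood within 1 SD of H2AC6 of each other, as did H2BC5 (22.0 ± 1.52) and H1-2 (21.6 ± 1.65). These orders rest on the length used, since the counted transcripts are not known.

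In all, 16 members had a mean above 3 reads in all 4 groups, 7 were at or under it in at least 1 group, and none was at or under it in all 4. The 7 were H1-1, H2AC13, H2AC25, H2BC12L, H2BC18, H3C4 and H4C16. H3C14 and H3C15, on opposite strands of chromosome 1, have identical coding sequences (100%), and their read counts were equal in 14 of 16 libraries; how the counting divided shared reads is not known, so neither gene's own level can be read from the table. H2BC12L shares 98.95% of its coding bases with H2BC12, whose level was far higher. H2AC11 and H2AC13 encode the same protein, as do H4C8, H4C11 and H4C16.

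**Figure D2:**
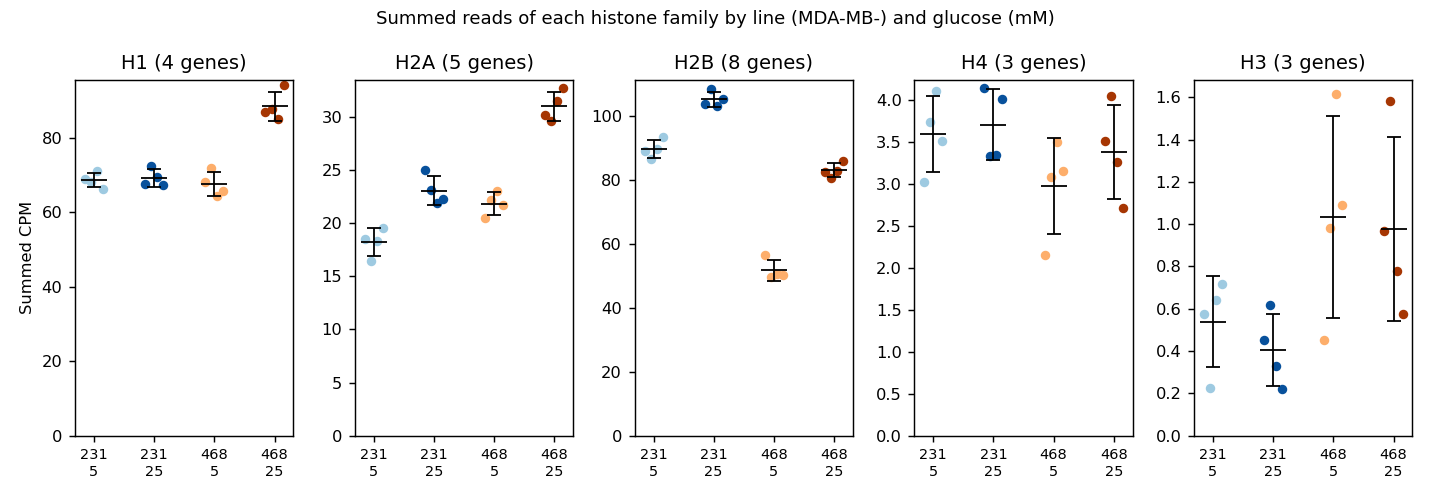
Summed CPM of the members of each histone family, by line and glucose concentration in mM; points are libraries and bars the mean and SD of 4, on axes that start at 0 and differ between panels. H2A and H2B sums are higher in 25 than in 5 mM glucose in every library of both lines, and H1 sums in every library of MDA-MB-468 alone, while the H1 groups of MDA-MB-231 and the H3 and H4 groups of both lines overlap.

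The first question was how the histone genes responded to high glucose in MDA-MB-468. There, 7 members rose, namely H1-10, H1-2, H2AC6, H2AC11, H2BC5, H2BC12 and H2BC21, and H2AC25 fell. Rises ran from 1.35-fold for H1-10 to 2.58-fold for H2AC11, and no H3 or H4 gene passed the test. Differences were tested with limma on log2(normalized reads + 1), adjusted over all 15757 genes tested with a threshold of 0.05, and fold changes are on that scale. Of the 23 members 18 were tested, since H1-1, H2AC13, H2BC12L, H3C14 and H3C15 did not reach 0.5 CPM in 2 or more libraries. Of the 18, 7 were called higher, where 24.9% of all tested genes were, and 1 was called lower, where 22.7% were. The median log2 fold change of the 18 was 0.39, against 0.00 over all tested genes. Low and high glucose did not overlap for 7 of the 18 members, against 42.5% of all genes.

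Among the linker histones, H1-10, which codes for the protein also called H1x, had 983, 1067, 944 and 957 normalized reads in the 4 low-glucose replicates of MDA-MB-468 and 1281, 1313, 1300.2 and 1422 in the high-glucose ones. All high-glucose libraries stood above all low-glucose ones, at 1.35-fold (log2 fold change 0.43 ± 0.05 SE, limma adjusted p = 1.29e-06). H1-10-AS1, on the other strand over H1-10, had a mean of 29.8 reads in low and 14.8 in high glucose.

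H1-2, a replication-dependent linker histone, had 72.0, 52.0, 58.6 and 56.6 normalized reads in low-glucose MDA-MB-468 and 91.4, 74.3, 68.7 and 97.8 in high glucose. The groups overlapped, and the rise was 1.38-fold (0.46 ± 0.15, limma adjusted p = 0.0168). Without low-glucose replicate 2, high-glucose replicate 1 or high-glucose replicate 4 of MDA-MB-468 it was not called (adjusted p between 0.050 and 0.0640). H1-4, of the same kind, had 10.3, 11.1, 7.88 and 11.7 normalized reads in low glucose and 21.4, 4.37, 4.58 and 2.53 in high glucose, and was not called (-0.67 ± 0.50, limma adjusted p = 0.282). A single high-glucose library stood above all low-glucose ones and the other 3 below them; without that library, replicate 1, the gene was called lower (-1.23, adjusted p = 0.0290). H1-1 had 10, 5, 5 and 3 reads in low glucose and 4, 5, 1 and 0 in high glucose, near the floor.

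Of the H2A genes, H2AC6 had 206, 236, 245 and 229 normalized reads in low-glucose MDA-MB-468 and 371, 345, 388 and 408 in high glucose. The groups were far apart, at 1.65-fold (0.72 ± 0.07, limma adjusted p = 5.45e-07). H2AC11 had 19.8, 18.8, 17.5 and 23.4 in low glucose and 51.5, 56.8, 48.1 and 53.9 in high glucose. This was the largest fold change of the members called, 2.58-fold (1.37 ± 0.18, limma adjusted p = 9.94e-06), from about 20 reads per library. H2BC11, which starts 248 bases from it on the other strand, had 2.21 to 8.98 normalized reads in low and 5.06 to 12.6 in high glucose and was not called (0.49 ± 0.45, limma adjusted p = 0.396). The difference between these neighbors was not tested.

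H2AC25 (older name HIST3H2A), a gene of a small cluster on chromosome 1, moved the other way. It had 81.5, 85.2, 81.4 and 69.2 normalized reads in low-glucose MDA-MB-468 and 50.6, 52.4, 61.8 and 51.4 in high glucose. Every high-glucose library was below every low-glucose one (-0.54 ± 0.13, fold 0.685, limma adjusted p = 0.00263). HIST2H2AA3 had 7.74 to 12.7 and 3.89 to 13.1 normalized reads in low and high glucose and was not called.

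Of the H2B genes, 3 rose. H2BC12, the most abundant core histone gene here, had 712, 637, 670 and 618 normalized reads in low-glucose MDA-MB-468 and 1049, 1019, 1096 and 1149 in high glucose. The groups did not overlap, and the rise was 1.64-fold (0.71 ± 0.05, limma adjusted p = 1.35e-08). H2BC5 had 119, 94.0, 84.0 and 108 normalized reads in low glucose and 204, 201, 172 and 183 in high glucose. It rose 1.88-fold, again with no overlap (0.91 ± 0.11, limma adjusted p = 4.40e-06). H2BC21 had 27.7, 17.7, 19.3 and 17.96 in low glucose and 33.1, 32.8, 38.9 and 27.8 in high glucose. Here the highest low-glucose library, replicate 1, nearly reached the lowest high-glucose library, and the rise of 1.59-fold (0.67 ± 0.22, limma adjusted p = 0.0176) was not called without high-glucose replicate 3 (adjusted p = 0.0568) or by DESeq2 on the recovered reads (adjusted p = 0.0614).

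**Figure D3:**
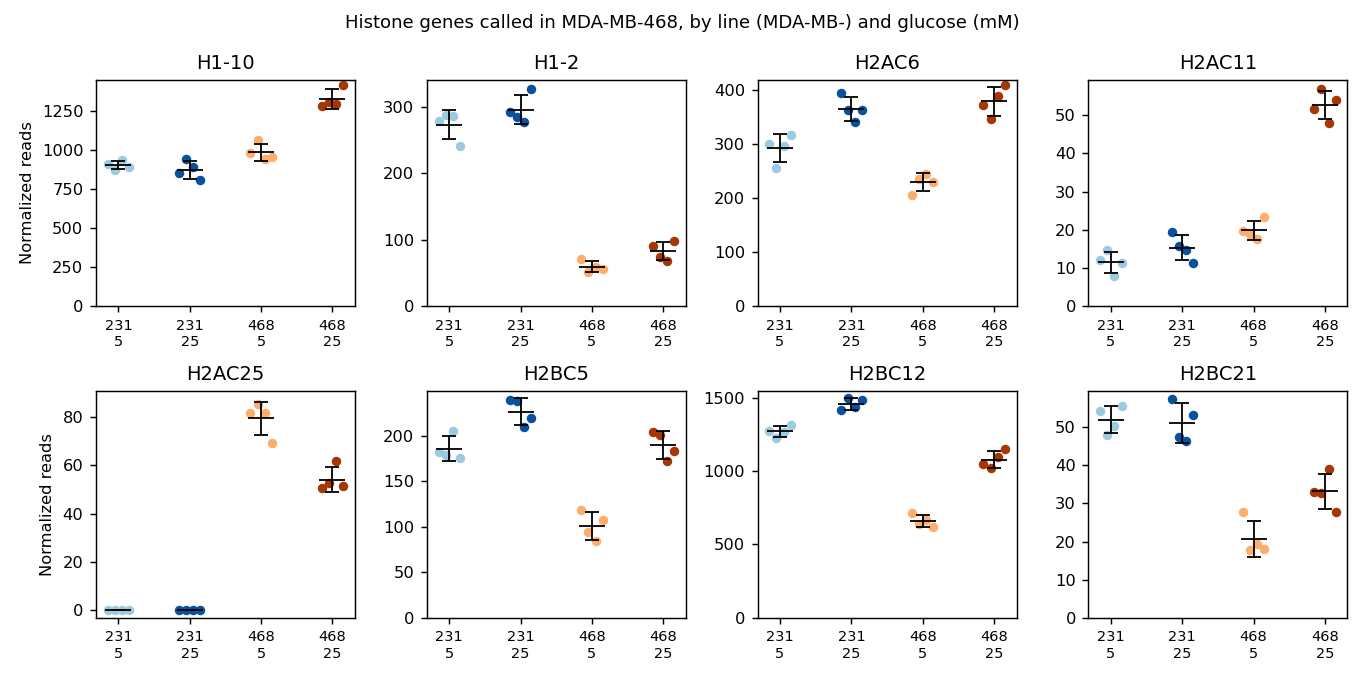
Normalized reads of the 8 histone genes called in MDA-MB-468, by line and glucose concentration in mM; points are libraries and bars the mean and SD of 4. Apart from H2AC25, which falls in MDA-MB-468 and has 0 reads in MDA-MB-231, each gene is higher in 25 than in 5 mM glucose in MDA-MB-468, with overlap for H1-2.

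The 10 tested members that were not called in MDA-MB-468 had low counts. Their low-glucose means ran from 6.27 (H3C4) to 24.2 (H4C8) normalized reads, while those of the 8 called ran from 19.9 (H2AC11) to 988 (H1-10). H4C8 and H4C11, genes for the same H4 protein, had log2 fold changes of 0.31 ± 0.21 and 0.36 ± 0.29 (limma adjusted p = 0.229 and 0.327). For H4C16 the value was -0.96 ± 0.54 and for H2BC18 -1.14 ± 0.64 (limma adjusted p = 0.156 and 0.155), with means of 3.8 and 2.44 normalized reads in high glucose. Without high-glucose replicate 2 of MDA-MB-468, H4C16 was called lower (-1.38, adjusted p = 0.0478). H2BC4 (0.50 ± 0.38), H2BC15 (-0.28 ± 0.36) and H3C4 (0.04 ± 0.60) had SEs too large for changes of their measured size to be called.

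The same question in MDA-MB-231 gave fewer and smaller changes. Here 3 members rose, H2AC6, H2BC5 and H2BC12, by 1.15-fold to 1.25-fold, and none fell. Of the 23 members, 15 were tested (14884 genes in all), and 3 of 15 were called higher where 5.71% of all tested genes were; 0 of 15 were called lower by limma or edgeR, where limma called 9.37% of all genes lower, and DESeq2 called none of the 6 members to which it gave an adjusted p lower. At an unadjusted p under 0.05, limma had 3 members, all higher. The members' median log2 fold change was 0.08, against 0.00 for all genes. Groups did not overlap for 3 members, against 18.7% of all genes.

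H2BC12 had 1274, 1226, 1266 and 1317 normalized reads in the low-glucose replicates of MDA-MB-231 and 1413, 1501, 1434 and 1485 in the high-glucose ones. The high-glucose libraries were all above the low-glucose ones, by 1.15-fold (0.20 ± 0.04, limma adjusted p = 0.00177). H2AC6 had 300.1, 255, 295 and 316 normalized reads in low glucose and 394, 362, 340 and 362 in high glucose. It rose 1.25-fold without overlap (0.32 ± 0.07, limma adjusted p = 0.00554). H2BC5 had 182, 179, 206 and 176 in low glucose and 239, 238, 209 and 220 in high glucose. Its rise of 1.22-fold (0.29 ± 0.08, limma adjusted p = 0.0222) had no overlap but little room to spare, and it was not called when low-glucose replicate 1 or 2 or high-glucose replicate 1 or 2 of MDA-MB-231 was left out (adjusted p between 0.0557 and 0.0714), nor with the length correction (0.24, adjusted p = 0.0624).

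The linker histones of MDA-MB-231 described here passed no test. H1-10 had 915, 875, 936 and 894 normalized reads in low and 857, 944, 891 and 810 in high glucose, and the groups overlapped (-0.05 ± 0.05, limma adjusted p = 0.565). H1-2 had 279, 288, 286 and 242 in low and 293, 285, 278 and 327 in high glucose, again with overlap (0.11 ± 0.08, limma adjusted p = 0.366). H1-4 was at 8.22 to 15.7 and 5.26 to 15.2 normalized reads, and H1-1 had 0 reads in all 8 libraries, which allows up to 3 reads in each. H2BC21, with 47.9 to 55.5 normalized reads in low and 46.4 to 57.4 in high glucose, and H2AC11, with 7.82 to 14.7 and 11.4 to 19.5, were not called.

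**Figure D4:**
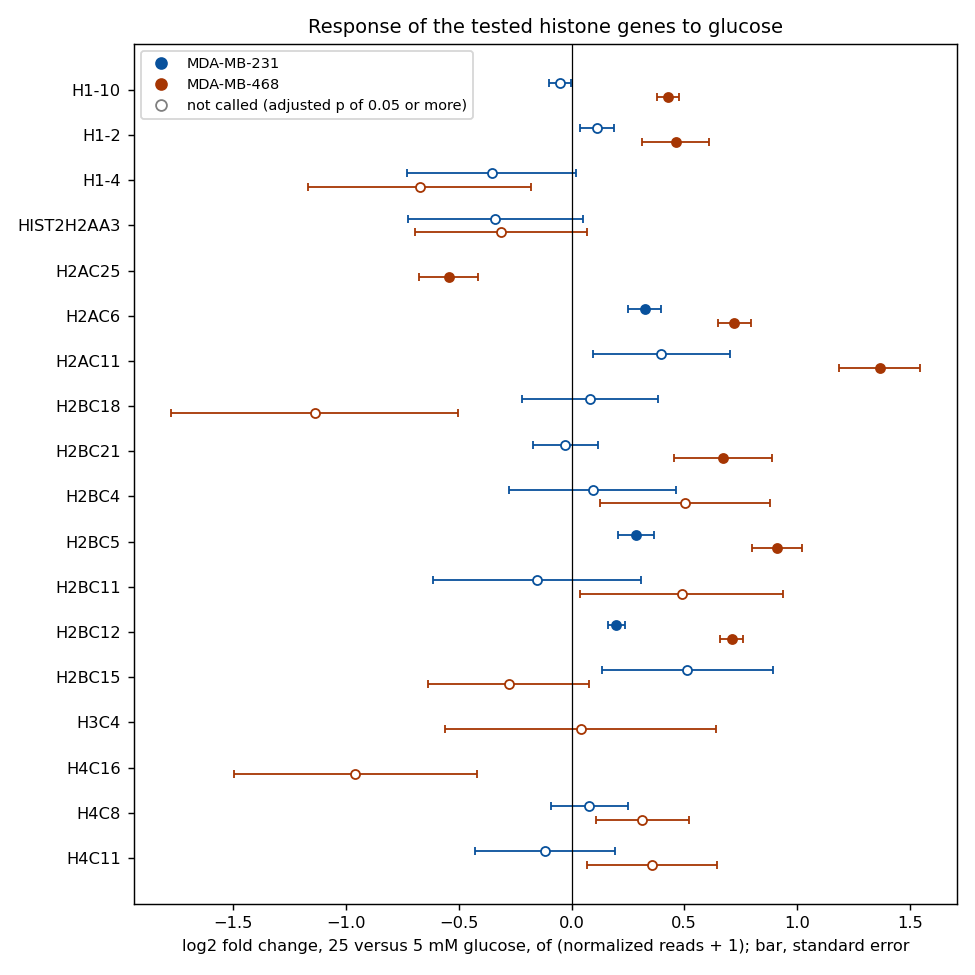
Log2 fold change from 5 to 25 mM glucose, on (normalized reads + 1), for each tested histone gene in both lines; bars are standard errors and filled points passed the adjusted p threshold of 0.05. In MDA-MB-468 7 filled points lie right of 0 and 1 left; in MDA-MB-231 3 lie right of 0 and none left.

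Whether the response differed between the lines was tested as an interaction, MDA-MB-468 minus MDA-MB-231, in 1 limma model of all 16 samples. For 6 members the response to high glucose was higher in MDA-MB-468: H1-10, H2AC6, H2AC11, H2BC5, H2BC12 and H2BC21. They were 6 of 18 tested, where 17.0% of 17115 genes were called in that direction. None was called lower by limma or edgeR, where limma called 13.9% of all genes, nor by DESeq2 among the 16 to which it gave an adjusted p. At an unadjusted p under 0.05 limma had 7 members, these 6 and H2AC25, whose value was negative. H2AC11 had the largest difference on the log2 scale (0.97 ± 0.28, limma adjusted p = 0.0127), and H2BC12 the smallest p (0.51 ± 0.06, limma adjusted p = 1.14e-05). H1-10 (0.48 ± 0.07, limma adjusted p = 5.50e-05) was close in size to H2BC12. H2AC6, which rose in both lines, differed by 0.40 ± 0.11 (limma adjusted p = 0.00829), and H2BC5, also called in both, by 0.63 ± 0.14 (limma adjusted p = 0.00244). The value for H2BC21 was 0.70 ± 0.22 (limma adjusted p = 0.0224), which DESeq2 on the recovered reads did not call (adjusted p = 0.0806). H1-2 (0.35 ± 0.17, limma adjusted p = 0.127) and H2AC25 (-0.54 ± 0.24, limma adjusted p = 0.10) were not shown to differ between lines, and H2AC25 has no reads in MDA-MB-231 from which a fall could be seen. Leaving out low-glucose replicate 1 of MDA-MB-468 gave a call for H1-2 (adjusted p = 0.0465), and leaving out low-glucose replicate 3 or high-glucose replicate 2 of that line gave a lower call for H2BC18 (adjusted p = 0.0470) or H4C16 (adjusted p = 0.0341).

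The last comparison described how the lines differed in 5 mM glucose, as a contrast of the low-glucose groups that also served as controls above. It was taken from the same limma model of all 16 samples, so high-glucose libraries also entered the filter and the estimate of spread. Most of the tested members differed in level between the lines. H1-2, H2AC6, H2BC5, H2BC12, H2BC18, H2BC21 and H4C8 were lower in MDA-MB-468, and H1-10, H2AC11, H2AC25, H3C4 and H4C16 were higher. These were 7 lower and 5 higher of 18 members tested; of all genes limma called 40.4% lower and 45.0% higher, so most genes differed. With quantile rescaling the split was 9 lower and 3 higher, and with a correction for transcript length 9 lower and 2 higher. The members' median log2 difference was -0.22, against 0.08 over all genes. The length correction moved the median of all genes to -0.07. Of the members higher in MDA-MB-468, H2AC25, H3C4 and H4C16 reached 0.5 CPM in libraries of that line alone. They were tested only because of the line in which they were higher, so their calls are not support for a difference.

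H1-2 had the largest difference among the members lower in MDA-MB-468, with the values given above (274 ± 21.6 normalized reads in MDA-MB-231 against 59.8 ± 8.58 in MDA-MB-468, SD, n = 4). This is 0.220-fold (-2.18 ± 0.12, limma adjusted p = 8.67e-12). H2BC12 was at 1271 ± 37.3 and 659 ± 41.1 normalized reads (-0.95 ± 0.05, limma adjusted p = 1.39e-12). Neither gene's groups overlapped. H2BC21 (-1.31 ± 0.15), H4C8 (-0.89 ± 0.17), H2BC5 (-0.88 ± 0.10) and H2AC6 (-0.35 ± 0.07) were also lower without overlap, with limma adjusted p of at most 0.000369. H4C8 had 37.9, 53.8, 53.6 and 39.1 normalized reads in low-glucose MDA-MB-231 and 19.8, 26.5, 25.4 and 25.1 in MDA-MB-468. H2BC18 was lower with overlap (-1.23 ± 0.47, limma adjusted p = 0.0216), and was not called without low-glucose replicate 4 of MDA-MB-231 or low-glucose replicate 1 or 3 of MDA-MB-468 (adjusted p between 0.0587 and 0.0949).

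H2AC25 separated the lines completely. It had 0 reads in all 8 MDA-MB-231 libraries and a mean of 5.04 CPM in low-glucose MDA-MB-468. This is at least 30.4-fold higher when MDA-MB-231 is set to 3 reads per library. In high glucose the bound was at least 19.6-fold. Zeros throughout 1 line were not particular to histone genes. UBN1, from the histone chaperone list below, had a mean of 107 CPM in low-glucose MDA-MB-231 and 0 in every MDA-MB-468 library. What lies behind such zeros was not tested. H3C4 also had 0 reads in MDA-MB-231, and 1, 6, 13 and 7 reads in low-glucose and 4, 10, 5 and 3 in high-glucose MDA-MB-468. On the same floor it was at least 2.40-fold higher in low glucose, at counts near that floor. H2AC11 was 1.70-fold higher in MDA-MB-468 (0.76 ± 0.19, limma adjusted p = 0.00157), a call lost under quantile rescaling and under the length correction.

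The difference in H1-10 was small and not stable. Its groups did not overlap (905 ± 26.6 and 988 ± 55.2 normalized reads, 1.09-fold, 0.12 ± 0.05, limma adjusted p = 0.0260). It was not called without low-glucose replicate 2 or 4 of MDA-MB-231 or low-glucose replicate 2 of MDA-MB-468 (limma adjusted p between 0.0512 and 0.104), nor by edgeR or DESeq2. The call was also lost with TMM scaling (limma adjusted p = 0.0588) and with the GC correction (0.02, limma adjusted p = 0.768). With the length correction H1-10 was called lower in MDA-MB-468 (-0.18, limma adjusted p = 0.0033). H4C16 was higher with overlap (1.02 ± 0.40, limma adjusted p = 0.0252), at 1.96 to 5.14 normalized reads in MDA-MB-231 and 3.95 to 8.75 in MDA-MB-468. Leaving out low-glucose replicate 2 or 3 of MDA-MB-231 or low-glucose replicate 2, 3 or 4 of MDA-MB-468 ended that call (adjusted p between 0.0529 and 0.0688). It was also lost under quantile rescaling (0.21, adjusted p = 0.643), with the length correction (0.48, adjusted p = 0.272) and the GC correction (0.87, adjusted p = 0.0544), and in DESeq2 (adjusted p = 0.0814). H2BC4, the neighbor of H2AC6, was not called (-0.75 ± 0.36, limma adjusted p = 0.0598), but was called lower when low-glucose replicate 2 or high-glucose replicate 1 or 4 of MDA-MB-231, or low-glucose replicate 4 of MDA-MB-468, was left out (adjusted p between 0.0333 and 0.0490), and under quantile rescaling and the length and GC corrections.

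Genes that act with histones were read from lists of the machinery. Of 24 genes for transcription and 3′-end processing of histone mRNAs, all tested, 5 rose and 6 fell with high glucose in MDA-MB-468, where 24.9% of all genes rose and 22.7% fell, so that these counts are near the background. In MDA-MB-231 0 rose and 3 fell, against 5.71% and 9.37% of all genes. SLBP, the stem-loop binding protein, was not called in MDA-MB-468 (0.01 ± 0.04, limma adjusted p = 0.821) or MDA-MB-231 (-0.12 ± 0.05, limma adjusted p = 0.0791). NPAT, the S-phase activator of histone gene transcription, fell in MDA-MB-468 from 979 ± 50.6 to 751 ± 43.5 normalized reads (SD, n = 4; -0.38 ± 0.05, limma adjusted p = 1.12e-05). CASP8AP2 and LSM11, both needed for histone mRNA 3′-end formation, also fell there (-0.30 ± 0.05 and -0.22 ± 0.07). Others rose in MDA-MB-468: LSM10, the partner of LSM11 in the U7 particle (0.49 ± 0.06, limma adjusted p = 8.15e-06), ZNF473, which binds that particle (0.20 ± 0.06), and CPSF4, of the cleavage and polyadenylation complex (0.77 ± 0.06, limma adjusted p = 2.78e-08). None of these 6 was called in MDA-MB-231.

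Most of the tested variant histones rose in MDA-MB-468. Of 15 listed, 10 were found, and 8 of 9 tested rose while 0 fell, where 24.9% and 22.7% of all genes did. In MDA-MB-231 0 of 8 rose and 4 fell, against 5.71% and 9.37%. H2AX, the variant phosphorylated at DNA breaks, whose mRNA is known both with a stem-loop end and with a poly(A) tail, rose in MDA-MB-468 from 758 ± 7.82 to 965 ± 47.9 normalized reads (0.35 ± 0.04) and fell in MDA-MB-231 from 1279 ± 94.1 to 1085 ± 40.8 (-0.23 ± 0.05, limma adjusted p = 0.00377). H2AZ1 did the same, at 0.19 ± 0.03 and -0.11 ± 0.03. H3-3A and H3-3B, which encode the variant H3.3, rose by 0.17 ± 0.04 and 0.08 ± 0.03 in MDA-MB-468 and were not called in MDA-MB-231. The interaction was called for 7 of the 9, all higher in MDA-MB-468, against 17.0% of all genes, with H2AX at 0.58 ± 0.07.

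Among 21 histone chaperones, 5 of 20 tested rose and 7 fell in MDA-MB-468, where the share of all genes that rose, 24.9%, was about the same, and 22.7% fell. In MDA-MB-231 1 of 21 rose and 12 fell, against 5.71% and 9.37% of all genes. ASF1A, which hands H3 and H4 to other chaperones, rose in MDA-MB-468 (0.56 ± 0.05). NASP, a chaperone of soluble H3, H4 and H1, and ASF1B, the form linked to proliferation, fell in MDA-MB-231 (-0.40 ± 0.04 and -0.41 ± 0.04) and were not called in MDA-MB-468. CHAF1A, of the assembly factor that works at the replication fork, fell in both lines (-0.48 ± 0.06 in MDA-MB-231, -0.13 ± 0.05 in MDA-MB-468).

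The S-phase list moved with the line. In MDA-MB-231 19 of 20 genes fell and 0 rose, where 9.37% and 5.71% of all genes did, with a median log2 fold change of -0.38. In MDA-MB-468 9 rose and 4 fell, with a median of 0.09, where 24.9% of all genes rose and 22.7% fell. The interaction was called for 18 of 20, all higher in MDA-MB-468, against 17.0% of all genes. CCNE2, a cyclin of the G1/S transition, fell from 310 ± 10.6 to 181 ± 24.8 normalized reads in MDA-MB-231 (-0.78 ± 0.09) and was not called in MDA-MB-468 (0.14 ± 0.06, limma adjusted p = 0.0934). PCNA and MCM2, of the replication fork, fell in MDA-MB-231 (-0.35 ± 0.04 and -0.29 ± 0.04) and rose in MDA-MB-468 (0.11 ± 0.03 and 0.23 ± 0.04). RRM2, of the enzyme that makes deoxynucleotides, fell in both (-0.61 ± 0.04 and -0.12 ± 0.03). In MDA-MB-231, H2AC6, H2BC5 and H2BC12 were higher in the same libraries in which 19 of 20 S-phase genes were lower; any link between the 2 was not tested.

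**Figure D5:**
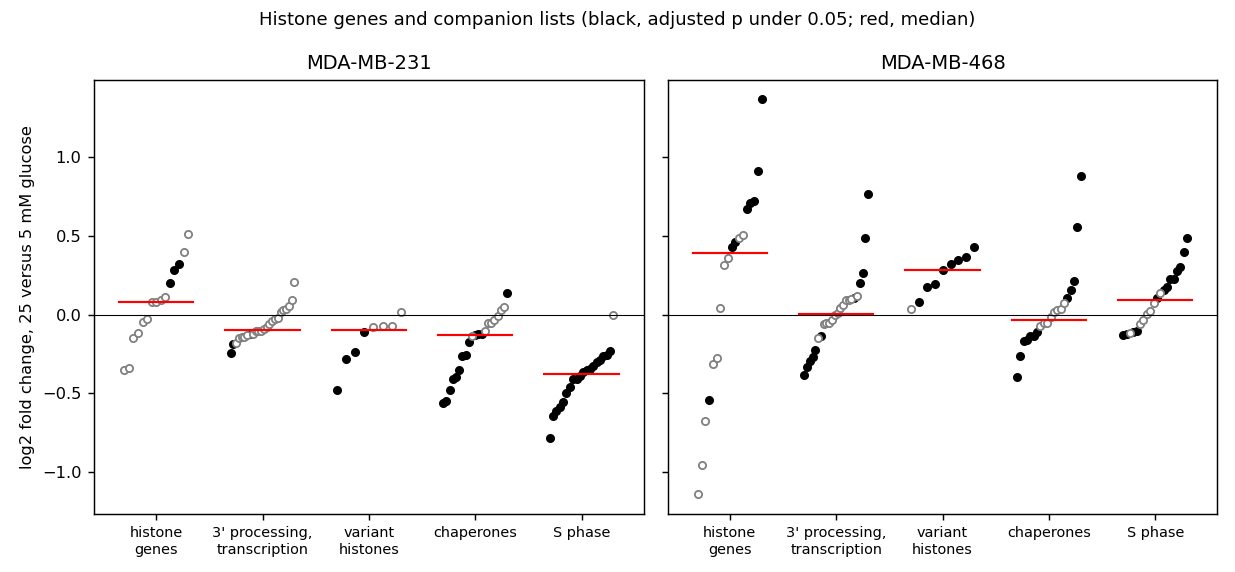
Log2 fold change from 5 to 25 mM glucose for the tested histone genes and 4 companion lists in each line; each point is a gene, black where the adjusted p was under 0.05, and the red line is the list's median. Of 20 S-phase genes 19 are called below 0 in MDA-MB-231, with a median of -0.38, while 8 of 9 variant histones are called above 0 in MDA-MB-468.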

How the data were processed

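RNA of MDA-MB-231 and MDA-MB-468 cells in 5 or 25 mM glucose (4 replicates per group) was sequenced. The study's methods name TopHat, the hg19 build, an Ensembl annotation, DESeq2 and edgeR, while the submitters' processing notes name hg38 and edgeR; the read counter and any use of strand are not given in the sources used here. Each deposited value is a signal that equals the gene's read count over a library factor set by the authors: in every library 100% of values were whole multiples of 1 step (tolerance 0.01 reads), so reads were recovered. Of 18332 IDs, 16633 had a symbol in a GENCODE annotation lifted to GRCh37; 1699 had none, and older histone IDs among them would be missed.

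Genes that reached 0.5 CPM in 2 or more samples of a fit entered limma 3.58.1, run in R 4.3.3 (lmFit, eBayes with trend, two-sided, Benjamini-Hochberg over all genes, threshold 0.05) on log2(value + 1). Alternatives were other pseudocounts, filters and scalings, corrections for length and GC content, edgeR 4.0.16, DESeq2 1.42.0, the replicate number as a block and leaving out each library. Same-numbered samples did not deviate together (correlations between -0.04 and 0.03), and replicate pairs differed by more than counting error (chi-square per gene 2.03 to 4.94). The scripts were tested on simulated data. Named with values were every reported H1 gene, members with a group mean of at least 5 CPM, and members called without overlap (up to 8 in each direction); other members are named, after their values were seen, to account for all. The members and lists were chosen with earlier results of these data known, and 1 gene of the pattern is not reported here. Not found among the listed genes were H2BU1, H3-4, H2BN1, H2AB1, H2AL3, PGR, CD3E, PECAM1, ALB and MYOD1. Intervals between replicates hold counting error together with the other spread between these samples, and whether that includes spread between cultures is not known. The floor covers counting error only.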

Additional observations from a re-analysis of the deposited data

Results flagged for a closer look

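The response to high glucose differed between the lines for 6 histone genes, by the interaction test of limma over all 16 samples. The log2 difference, MDA-MB-468 minus MDA-MB-231, was 0.48 for H1-10, 0.40 for H2AC6, 0.97 for H2AC11, 0.70 for H2BC21, 0.63 for H2BC5 and 0.51 for H2BC12.

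In 7 of the 86 groups of 4 whose values varied, 1 library stood far from the other 3 by Dixon's criterion, which chance meets in about 1 group in 20. In high-glucose MDA-MB-468 the distant value was 21.4 normalized reads for H1-4 (others 2.53 to 4.58), 61.8 for H2AC25 (others 50.6 to 52.4) and 5.83 for H2BC18 (others 1.09 to 1.69). In low-glucose MDA-MB-468 it was 27.7 for H2BC21 (others 17.7 to 19.3). For low-glucose MDA-MB-231 the distant values were 16.8 for HIST2H2AA3 (others 9.25 to 9.79), 22.6 for H2BC18 (others 11.7 to 13.6) and 8.22 for H2BC12L (others 2.14 to 2.94).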

How the results depend on the processing

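The 29 calls of single histone genes held in 709 of 749 recomputations. Of the rest, 38 lost the threshold, and 2 turned direction, both for H1-10 between the lines (-0.18 with the length correction, with and without the replicate block). Refits that gave a gene no adjusted p, because it was filtered out or otherwise, are not counted. Between the lines this left 26 recomputations for H3C4 and 28 for H4C16, against 29 for each other call. In MDA-MB-468 6 or 7 members were called higher under every alternative, and 1 lower except when a library was left out (1 to 2). For the interaction 5 to 7 were higher, with 0 lower except under pseudocount 5 (1, H2AC25) and with a library left out (0 to 1). In MDA-MB-231 2 to 3 were higher and 0 lower, also when a library was left out. Between the lines, 3 members were higher in MDA-MB-468 with a filter of a mean of at least 10 reads, under quantile rescaling, in DESeq2, with the GC correction (with and without the block) and without members whose protein is identical to another's, and 2 with the length correction (with and without the block), against 5; leaving out a library gave 3 to 5 higher and 6 to 8 lower. The causes were not tested. The replicate block, whose numbers do not pair the samples, left 2 members higher in MDA-MB-231 (H2BC5 at adjusted p = 0.0551), and 7 higher and 1 lower in MDA-MB-468, 6 higher in the interaction, and 5 higher and 7 lower between lines.

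With TMM scaling the summed levels were 191 and 209 CPM in low- and high-glucose MDA-MB-231 and 137 (low) and 199.5 (high) in MDA-MB-468. With the longest coding length the summed levels per length were 388, 443, 291 and 426 RPKM in the same order. The 10 members not called in MDA-MB-468 had low-glucose means of at most 24.2 normalized reads, with standard errors of 0.21 to 0.64. H2AC11 and H2BC21, with means of 19.9 and 20.6, were called. Whether depth set which members were called was not tested.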
